A study of Mus musculus with 52 samples.

Results

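The clustered histone genes were examined as the rows of the deposited count table whose symbol names a linker histone (H1f) or a clustered core histone (H2ac, H2bc, H3c or H4c) followed by a number. The rule took 52 of the 14626 rows: 6 of H1, 13 of H2A, 12 of H2B, 11 of H3 and 10 of H4. Another 7 rows of clustered histones carry older symbols (Hist1h2al, Hist1h2an, Hist1h2ao, Hist1h2ap, Hist1h2bp, Hist1h2br and Hist1h4m) and fall outside the rule. In the mouse annotation 41 of the genes lie on chromosome 13 and 9 on chromosome 3. H1f0 on chromosome 15 and H1f10 on chromosome 6 lie outside both clusters, so the label "clustered" does not hold for these members.

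DNA is wrapped around octamers of the core histones H2A, H2B, H3 and H4, and linker histones of the H1 family bind where the DNA enters and leaves. Most clustered histone genes are transcribed during S phase, when newly copied DNA has to be packed, and their mRNAs end in a conserved stem-loop bound by SLBP instead of a poly(A) tail. H1f0 and H1f10 encode linker variants that are made outside S phase from polyadenylated mRNA. CD8+ T cells at rest rarely divide, and divide rapidly once activated.

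All libraries were made by bulk MARS-seq, a 3′ end RNA sequencing method, from splenic CD8+ T cells of OT-I mice, whose transgenic T cell receptor recognises a peptide of ovalbumin. Cells were taken fresh (day 0, 9 libraries) or after activation, either with microbeads that carry antibodies to CD3 and CD28, in the presence of interleukin 2, or with CD11c-selected dendritic cells (DCs) of C57BL/6 mice loaded with the ovalbumin peptide. Culture wells were uncoated or coated with the chemokine CCL21 and the adhesion ligand ICAM1, and the study asked how this coating changes activated T cells. Bead cultures gave 3 uncoated and 5 coated samples at day 3, and 5 uncoated and 4 coated samples at day 7. DC cultures gave 7 uncoated and 9 coated libraries at day 3, which were summed per M number (the number in the sample titles) to 4 and 5 samples, and 5 of each at day 4. The labels give no age or sex, and do not say whether M numbers are separate mice, so a p-value reflects only how much the sequenced samples varied, which may be technical.

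Library totals ran from 382924 to 4641802 counts, of which the 52 genes held 0.0432% to 0.158%. At this depth between 40 and 52 of them had at least 1 count in a sample, and 22 had one in all 45 samples. T cell genes were present in every group (Cd8a averaged 277 to 644 CPM, counts scaled to the same library total). Day 0 libraries also carried transcripts of other spleen cells: summed erythroid markers, 9 genes led by the globins, ran from 25615 to 135703 CPM at day 0 and from 10.0 to 1186 CPM in the activated samples. The 11 markers of MHC class II and dendritic cells summed to 12304 to 21556 CPM at day 0 against 184 to 1657 CPM after activation, and the 9 B cell markers to 4019 to 8319 CPM against 269.8 to 2603 CPM. The 9 myeloid markers summed to 278 to 730 CPM and 1.55 to 41.1 CPM. None of these markers was under 1 CPM in all groups, as each exceeded 1 CPM at day 0. Ighm held most of the B cell sum after activation, with group means of 474 to 2256 CPM. Each of the other B cell markers averaged at most 29.3 CPM in the activated groups. Among the activated samples, uncoated DC day 4 M8 stood apart (1186 CPM of erythroid and 1657 CPM of MHC class II markers), and uncoated bead day 7 M3 and M4 carried 495 and 826 CPM of erythroid markers. Uncoated DC day 4 M9 carried 611 CPM of erythroid markers, coated DC day 4 M8 500 CPM and uncoated DC day 3 M3 485 CPM.

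The conserved end of the histone mRNA and the likeness of the copies both bear on what a 3′ end method can count. The histone stem-loop was searched on the transcribed strand of 1 transcript model for each gene (GENCODE vM21, GRCm38). The outer and inner stem bases and most of the loop were fixed, and only the middle stem bases and 1 loop base were left free. The motif was found in 31 of the 52 models, against 0.167% of 58797 protein coding transcripts. Many of the other models stop at the coding sequence. The stem-loops of the members that the results turn on are shown with 5 bases on each side, the 16 matched bases in capitals.
H1f2: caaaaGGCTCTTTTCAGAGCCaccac
H2ac8: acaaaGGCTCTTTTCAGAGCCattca
H2bc11: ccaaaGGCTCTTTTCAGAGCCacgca
H3c3: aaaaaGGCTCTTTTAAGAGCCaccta
H4c2: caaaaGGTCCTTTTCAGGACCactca
H4c9: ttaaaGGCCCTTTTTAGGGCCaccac
The capitals lie at chr13:23739512-23739527 (plus strand) for H1f2, chr13:23570668-23570683 (minus) for H2ac8, chr13:22043638-22043653 (plus) for H2bc11, chr13:23745047-23745062 (minus) for H3c3, chr13:23757366-23757381 (plus) for H4c2 and chr13:22040966-22040981 (minus) for H4c9. H1f2, H2ac8 and H2bc11 share the same 16 bases, as do other members of H1, H2A, H2B and H3, whereas the H4 genes carry stems of their own.

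A median of 57 bases followed the stem-loop in these models, with a range of 11 to 1257. H1f2 had 840 bases after it and H2ac8 had 151, both with a later AATAAA, the poly(A) signal, which 5 of the 31 models contained. H2bc11 ended 23 bases and H4c2 28 bases after the stem-loop, with no AATAAA. Since MARS-seq primes on poly(A), it favours polyadenylated forms, and the levels given here are not the total of each histone mRNA. The reads of near-identical copies may also be exchanged: 47 of the 52 models shared a run of 50 bases with another gene, 34 of them within the last 200 bases. H1f2, H2ac8, H4c9, H1f0 and H1f5 shared none in those last 200 bases. The share was 56.0% for H2bc11, 50.0% for H2ac11, 44.0% for H4c2, 70.0% for H3c11 and 98.7% for H2ac13, whose values are therefore uncertain between copies.

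Promoters are shown for a pair of genes with neighbouring starts that both rose against day 0, and for the members with the highest levels before and after activation. H2ac11 and H2bc11 are read away from each other from starts 270 bases apart, and the RefSeq window of H2bc11 (GRCm38.p6, chr13:22042948-22043247, plus strand) covers the space between them. It is shown with CCAAT on either strand in capitals.
H2bc11: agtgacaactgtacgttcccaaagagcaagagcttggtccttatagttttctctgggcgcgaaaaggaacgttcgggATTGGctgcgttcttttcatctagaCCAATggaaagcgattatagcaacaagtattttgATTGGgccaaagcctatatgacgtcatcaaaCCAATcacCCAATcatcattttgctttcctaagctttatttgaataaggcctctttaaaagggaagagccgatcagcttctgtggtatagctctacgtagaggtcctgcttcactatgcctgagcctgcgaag
The windows of H2ac8 (chr13:23571171-23571470, minus) and H1f2 (chr13:23738557-23738856, plus) follow. Capitals mark CCAAT on either strand and, in H2ac8, also the TATA box and the octamer, which both match on the opposite strand, nearer the start of the neighbour H2bc8.
H2ac8: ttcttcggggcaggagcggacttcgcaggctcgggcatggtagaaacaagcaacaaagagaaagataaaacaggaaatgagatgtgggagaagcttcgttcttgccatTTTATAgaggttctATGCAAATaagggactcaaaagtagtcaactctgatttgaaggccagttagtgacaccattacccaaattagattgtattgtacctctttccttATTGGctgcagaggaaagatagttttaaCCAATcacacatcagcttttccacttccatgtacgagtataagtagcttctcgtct
H1f2: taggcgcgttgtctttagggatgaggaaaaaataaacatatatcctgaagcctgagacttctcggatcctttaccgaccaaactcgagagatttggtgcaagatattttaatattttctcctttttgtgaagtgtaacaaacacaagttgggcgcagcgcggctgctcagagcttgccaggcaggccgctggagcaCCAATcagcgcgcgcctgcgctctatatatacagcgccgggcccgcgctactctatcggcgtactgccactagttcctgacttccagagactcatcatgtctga
CCAAT on either strand occurred in 39 of the 47 members with a RefSeq window, against 37.4% of all 32851 windows. The TATA box, searched as TATAAA, occurred in 27 of 47, against 13.6%. The octamer, searched as ATTTGCAT, occurred in 10 of 47, against 1.74%. The octamer was found in 5 of 13 H2A and 5 of 10 H2B windows. Windows of neighbours read away from each other can overlap, as those of H2ac8 and H2bc8 do, so a single site can be counted for both genes. This holds for each motif. Both strands were searched for each motif on its own, matches of different motifs may share bases, and a match is a description of the window.

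Transcript levels differed widely between members. A 3′ end read is counted per transcript end whatever the length of the transcript, so levels are given as CPM with TMM scaling and were not divided by length. Averaged over the 9 group means, 19 members reached 10 CPM and together held 84.3% of the summed histone level. The other 33 averaged 0.153 to 9.58 CPM. H2ac8 had the highest mean level at 173 CPM, 20.9% of the sum, followed by H1f2 at 83.5 CPM. The neighbour that shares the H2ac8 start region, H2bc8, averaged 4.53 CPM although its start lies 176 bases away, whereas H2ac11 and H2bc11 averaged 45.7 and 42.9 CPM.

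The summed level of the 52 genes was highest in bead cultures at day 3, at 1236 ± 157 CPM (SD, n = 3) uncoated and 1101 ± 145 CPM (n = 5) coated. It was lowest in uncoated bead cultures at day 7, at 542 ± 84.4 CPM (n = 5). Day 0 cells gave 921 ± 257 CPM (n = 9), of which H1f2 alone made up 514 ± 143 CPM, and without that gene day 0 had the lowest sum of all groups, 407 ± 121 CPM. Of the 52 genes, 27 had their highest group mean in a bead day 3 group and 13 had it at day 0. In bulk samples, fewer cells in S phase and less histone mRNA per cell cannot be told apart.

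**Figure D1:**
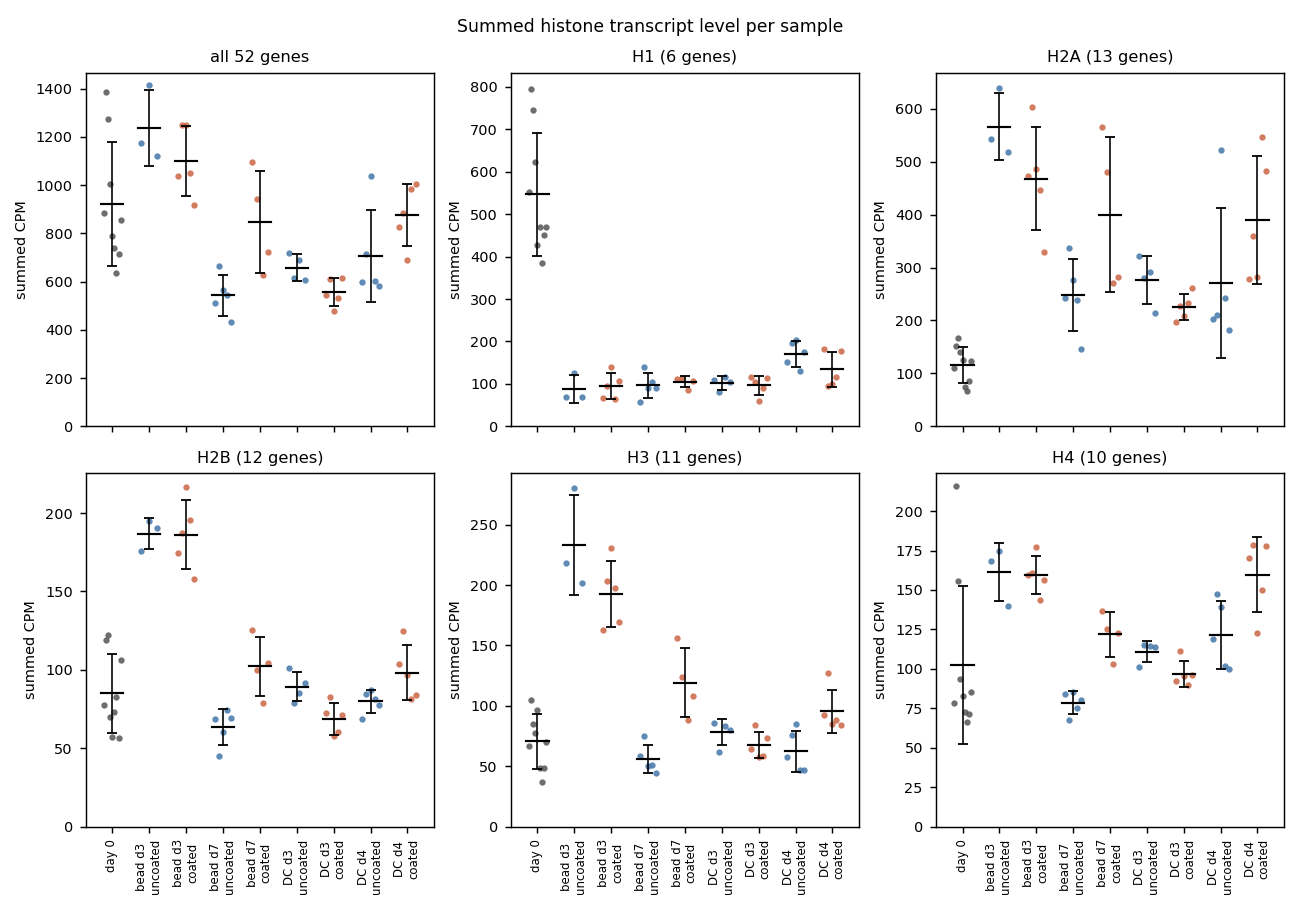
Summed CPM (y axis) of all 52 histone genes and of each class in the 9 groups (x axis; d, day). Points are samples, bars mean and SD. H1 is highest at day 0 (384 to 795 CPM), whereas H2A, H2B and H3 are highest at bead day 3.

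The classes followed different orders. H1 summed to 547 ± 145 CPM at day 0 (n = 9) and to group means of 87.9 to 171 CPM after activation, with no overlap between day 0 and any activated sample. H2A went the other way, from 116 ± 34.4 CPM at day 0 to 567 ± 63.9 CPM in uncoated bead cultures at day 3 (n = 3). Uncoated H3 and H2B also stood highest at bead day 3, at 233 ± 41.5 and 187 ± 10.1 CPM (n = 3), and fell back at day 7 to 55.9 ± 11.9 and 63.5 ± 11.6 CPM (n = 5), below their day 0 means of 70.5 ± 23.0 and 84.98 ± 25.02 CPM (n = 9). These day 7 and day 0 values overlap. The H4 sum lay between group means of 78.5 CPM in uncoated bead day 7 and 161 CPM in uncoated bead day 3.

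**Figure D2:**
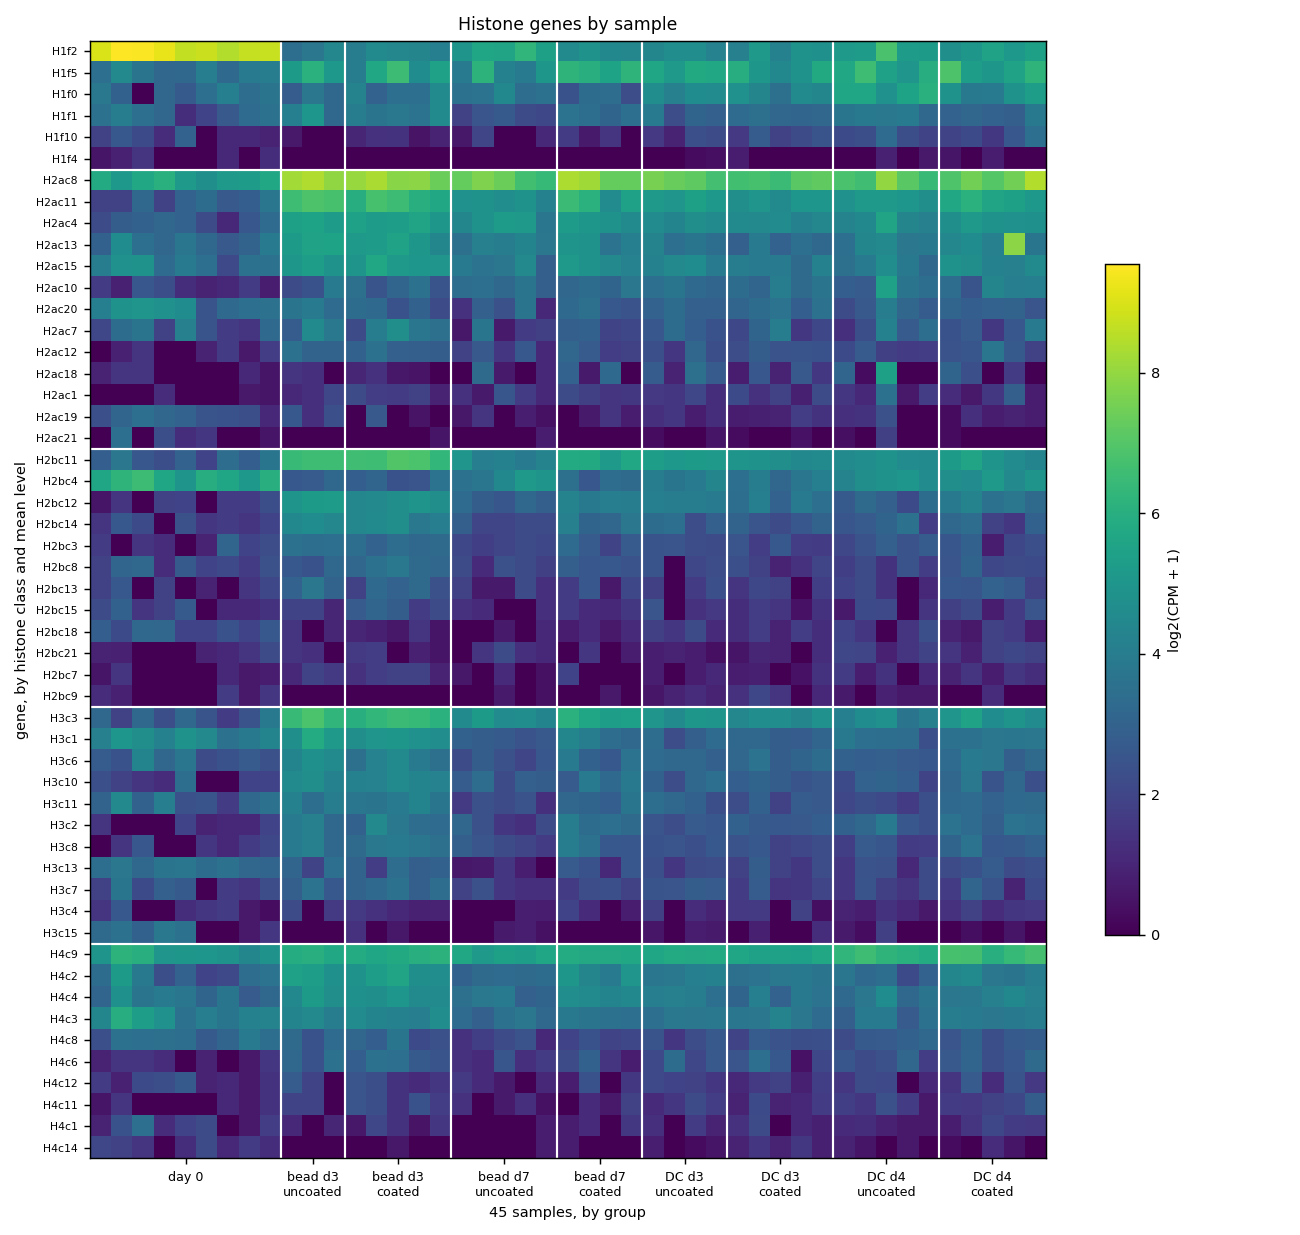
Level of each histone gene (rows, by class and mean level) in each of the 45 samples (columns, by group), as log2(CPM + 1). H1f2 and H2bc4 are brightest at day 0, most core histone genes at bead day 3, and H2ac13 stands out in a single coated DC day 4 sample (236 CPM).

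Activation was examined by comparing the uncoated groups with day 0. A gene was called when its adjusted p in edgeR's quasi-likelihood test, over all genes tested, was under 0.05. Before each test a filter on low counts asked for enough counts in only as many samples as the smallest group held. A low member can thus enter through the group where it is high, which sets part of its direction. Counts of members by direction and their medians carry this limit in every comparison. In bead cultures at day 3, 28 members passed the filter on low counts, of which 16 were higher and 3 lower than at day 0, while 65.2% of the 8891 genes tested were called, 30.2% higher and 35.0% lower. The median log2 fold change was 1.18 over the members and -0.12 over all genes. DC cultures had 8 of 24 members higher and 7 lower at day 3 (37.0% and 38.1% of all genes, 75.1% together), and 8 of 22 higher and 7 lower at day 4 (26.4% and 29.2%, 55.6% together). Bead cultures at day 7 had 6 of 21 higher and 8 lower (30.5% and 31.0% of all genes, 61.5% together). These comparisons share the day 0 samples. In each of them the markers of other spleen cells named above are lower in the activated cells, and their part in the histone changes was not tested.

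H1f2, which encodes the linker histone H1.2, had the largest level at day 0: the lowest of 9 samples had 352 CPM, the median 442 CPM and the highest 746 CPM. Uncoated bead samples had 9.9, 12.8 and 20.5 CPM at day 3 and 29.6, 49.7, 47.1, 76.5 and 41.5 CPM at day 7. Uncoated DC samples had 19.9, 24.5, 24.8 and 18.0 CPM at day 3 and 34.4, 37.1, 109, 37.7 and 36.1 CPM at day 4, the 109 CPM being that of M8. Every activated sample lay below every day 0 sample. The log2 fold change against day 0 was -5.28 ± 0.36 (SE) at bead day 3 (adjusted p = 5.3e-09, edgeR), -4.61 ± 0.26 at DC day 3, -3.45 ± 0.26 at bead day 7 and -3.42 ± 0.34 at DC day 4. The 2 activated samples with most H1f2, M8 of uncoated DC day 4 and M4 of uncoated bead day 7, are also those with the most erythroid markers among activated samples.

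H2bc4 encodes an H2B, and its model has 2 exons spread over chr13:23684199-23692908, unlike the usual histone gene of a single exon. It also fell, from 29.4, 48.7 and 93.2 CPM (lowest, median and highest) at day 0 to 5.3, 5.7 and 8.2 CPM in uncoated bead cultures at day 3. The log2 fold change was -3.19 ± 0.40 at bead day 3, -1.81 ± 0.25 at DC day 3, -1.37 ± 0.30 at bead day 7 and -1.19 ± 0.23 at DC day 4, each called. The groups did not overlap at day 3, whereas at bead day 7 and DC day 4 the highest activated samples (34.9 and 31.5 CPM) lay above the lowest at day 0.

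H1f5 and H1f0 moved the other way from H1f2. H1f5, which encodes the linker histone H1.5, rose from 12.7 ± 4.43 CPM at day 0 (n = 9) to 45.7 ± 19.6 CPM at bead day 3 (n = 3) and 56.4 ± 24.6 CPM at DC day 4 (n = 5), a log2 fold change of 1.67 ± 0.28 and 2.07 ± 0.24. It was also higher at DC day 3, by 1.85 ± 0.20, and at bead day 7, by 1.15 ± 0.36, where the call was lost without uncoated M2 (adjusted p = 0.10, edgeR). H1f1, another linker histone gene, was lower at bead day 7, by -1.19 ± 0.37, and was not called in the other comparisons with day 0. H1f0, which encodes H1.0, a variant known to build up in cells that leave the cell cycle, had 0.0, 9.5 and 16.3 CPM at day 0 and 5.8, 12.8 and 8.2 CPM in uncoated bead cultures at day 3. It had 24.7, 16.9, 24.1 and 23.4 CPM in uncoated DC cultures at day 3 and 48.5, 47.3, 27.1, 45.04 and 66.3 CPM at day 4. All uncoated DC samples lay above all day 0 samples, with a log2 fold change of 1.19 ± 0.26 at day 3 and 2.21 ± 0.26 at day 4 (adjusted p = 4.0e-04 and 8.1e-07, edgeR).

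H2ac8 led the core histone members. Outside the rule, Hist1h2ao averaged more than H2ac8 in uncoated DC cultures, at 186 against 150 CPM at day 3 and 160 against 138 CPM at day 4. At day 0 and in uncoated bead cultures it averaged less than H2ac8. H2ac8 values by sample follow. It had 26.0, 36.5 and 65.9 CPM at day 0 (lowest, median and highest), and 300, 340 and 247 CPM in the uncoated bead samples at day 3. It had 154, 206, 167, 100 and 83.3 CPM there at day 7, 192, 161, 144 and 103 CPM in uncoated DC cultures at day 3, and 110, 97.1, 257, 137 and 87.2 CPM at day 4, M8 again being the highest. No activated sample overlapped with day 0. The log2 fold change was 2.70 ± 0.20 at bead day 3, 1.77 ± 0.20 at DC day 3, 1.68 ± 0.22 at bead day 7 and 1.62 ± 0.25 at DC day 4, each called.

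The neighbours H2ac11 and H2bc11 both rose against day 0. H2ac11 went from a day 0 median of 6.18 CPM (2.56 to 12.5 CPM) to 93.9, 118 and 108 CPM at bead day 3, and H2bc11 from 6.26 CPM (2.78 to 12.8 CPM) to 88.7, 95.3 and 95.1 CPM. Their log2 fold changes were 3.87 ± 0.28 and 3.47 ± 0.24 (adjusted p = 5.2e-09 and 3.6e-09, edgeR). Both were also called higher in the other 3 comparisons with day 0, by 1.29 to 2.36. They did not go together throughout. Of this pair, only H2ac11 was called for the coating at DC day 4, and only H2bc11 at bead day 7. From uncoated to coated bead day 3, mean H2ac11 went from 107 to 75.3 CPM and mean H2bc11 from 93.0 to 102 CPM, neither called. H2bc12, another H2B gene with a neighbour read away from it (H2ac12), rose by 3.88 ± 0.36 at bead day 3, from 1.77 ± 1.37 CPM (n = 9) to 34.1 ± 3.77 CPM (n = 3). H2ac4, an H2A gene, rose in all 4 comparisons, by 1.96 to 2.75. H2ac15 rose at bead day 3, from 14.4 ± 8.41 CPM (n = 9) to 33.0 ± 4.96 CPM (n = 3), by 1.17 ± 0.36, as did H2ac13, by 1.84 ± 0.31, and neither was called at the other points.

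H3c3, the most abundant of the H3 genes, rose from a day 0 median of 4.64 CPM (2.17 to 13.5 CPM) to 87.5, 112 and 77.7 CPM at bead day 3, a log2 fold change of 3.60 ± 0.29. It was also higher in the other 3 comparisons, by 1.41 to 2.01. H3c1 changed in both directions: it was higher at bead day 3, by 0.85 ± 0.30 with overlapping samples, and lower at bead day 7, DC day 3 and DC day 4, by -1.85 ± 0.28, -1.36 ± 0.27 and -1.09 ± 0.27. H3c1 at bead day 3 was no longer called without uncoated M2 (adjusted p = 0.16, edgeR). H3c6 rose at bead day 3, by 1.75 ± 0.37, from 7.45 ± 5.03 CPM (n = 9) to 22.7 ± 4.19 CPM (n = 3), and was not called in DC cultures. H3c13, on chromosome 3, was at 10.1 ± 1.98 CPM at day 0 (n = 9) and 0.736 ± 0.664 CPM at bead day 7 (n = 5).

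Among the H4 genes, H4c2 and H4c4 were higher at bead day 3 and in no other comparison with day 0, by 1.66 ± 0.46 and 1.19 ± 0.37 in edgeR's test. H4c4 was not called without uncoated M2 of bead day 3 (adjusted p = 0.051, edgeR). H4c9, the most abundant H4 row, was called higher only at DC day 4, by 0.97 ± 0.24, from 37.3 ± 17.6 CPM (n = 9) to 73.9 ± 14.2 CPM (n = 5). H4c3 was lower at DC day 3, bead day 7 and DC day 4, by -0.99 ± 0.36, -1.41 ± 0.37 and -1.30 ± 0.38, from a day 0 mean of 24.6 ± 15.97 CPM. Day 0 M2 and M3 had 60.5 and 39.0 CPM of H4c3. The other day 0 samples had 11.2 to 27.7 CPM, which overlaps uncoated DC day 4 (5.63 to 14.0 CPM). With M number as a block, H4c3 was not called at DC day 4 (-0.56, adjusted p = 0.11, edgeR). At DC day 3 it was not called without uncoated M1 (adjusted p = 0.062, edgeR). Whether H4 members differ between these comparisons was not tested.

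**Figure D3:**
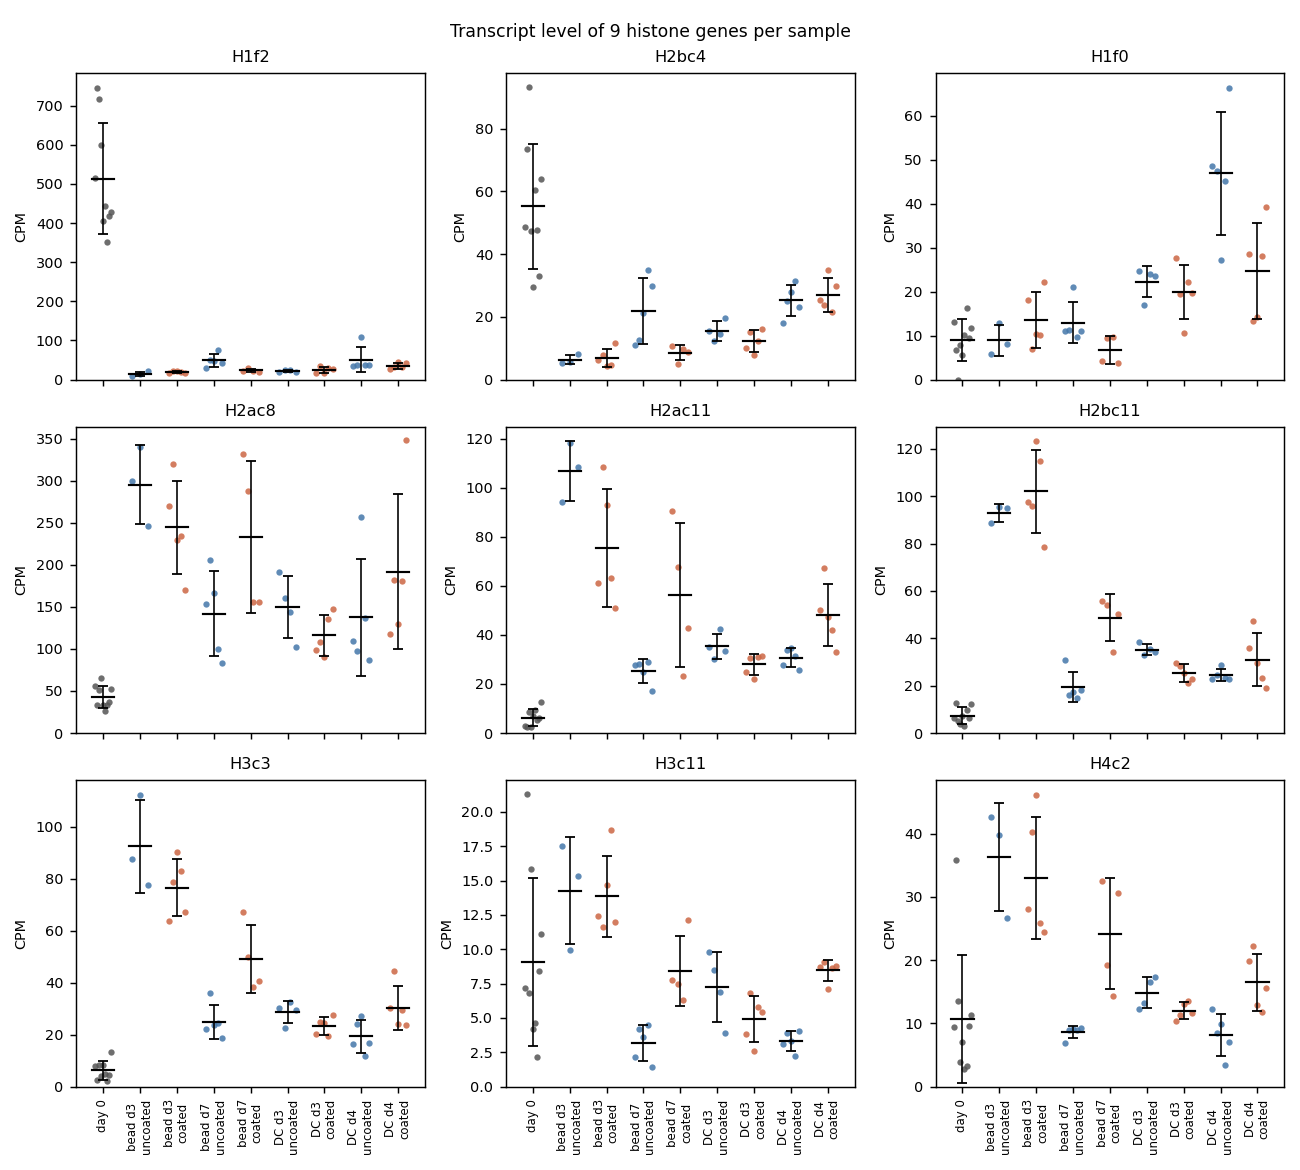
CPM (y axis) of 9 histone genes in every sample of the 9 groups (x axis; d, day). Points are samples, bars mean and SD. H1f2 and H2bc4 are highest at day 0, H1f0 in uncoated DC cultures at day 4 (27.1 to 66.3 CPM), and H2ac11, H2bc11 and H3c3 at bead day 3.

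From day 3 to day 7 of bead culture in uncoated wells, most of the histone transcripts tested fell. Of 30 members tested 21 were lower and 2 higher, so that 23 of 30 were called in either direction, against 23.1% of the 9024 genes tested (991 lower and 1093 higher). The median log2 fold change was -1.72 over the members and 0.02 over all genes. H2bc11 fell from 93.0 ± 3.78 CPM (n = 3) to 19.5 ± 6.40 CPM (n = 5), by -2.24 ± 0.22 (adjusted p = 1.3e-04, edgeR). H3c1 fell by -2.74 ± 0.30 and H2ac8 by -1.06 ± 0.26. All 7 H3 genes tested were lower, as were 5 of 6 H2B, 5 of 9 H2A and 3 of 4 H4 genes. Members low at day 7 could enter this test through the day 3 samples alone, so the filter sets part of this direction. H3c11 entered so, with 17.5, 9.96 and 15.3 CPM at day 3 and 1.43 to 4.46 CPM at day 7. The members that rose were H1f2 and H2bc4, which rose by 1.79 ± 0.37 and 1.80 ± 0.49. Without uncoated M3 and M4 of day 7, 20 were lower and 1 higher, and H2ac8, H2ac12, H3c2 and H2bc4 were no longer called. The call of H2bc4 was also lost without any 1 of the day 3 samples and that of H2ac8 without M1 or M2 of day 3 (adjusted p up to 0.12 and 0.071, edgeR). With M number as a block the counts were 18 and 2: H2ac12, H2bc13, H3c2 and H4c3 were no longer called and H2ac7 was.

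In the DNA replication list the same comparison had 14 of 44 genes lower, none higher and a median of -0.54. Pcna, the sliding clamp of DNA polymerase, fell by -0.66 ± 0.18, from 533 CPM to 338 CPM. Slbp, the stem-loop binding protein, had a log2 fold change of -0.71 ± 0.26 (adjusted p = 0.069, edgeR), and Npat, a coactivator of histone transcription, one of -0.07 ± 0.41 (adjusted p = 0.93). Mki67, a proliferation marker, had -0.45 ± 0.86 (adjusted p = 0.74).

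In uncoated DC cultures from day 3 to day 4, taking the day 3 libraries with 120 in the title as at day 4, 4 of 27 members were higher and 4 lower, while 61.6% of the 9293 genes tested were called, 30.8% in each direction. H2bc12, H4c2, H2bc11 and H3c3 fell by -0.99 ± 0.25, -0.87 ± 0.26, -0.53 ± 0.14 and -0.52 ± 0.20. H1f2, H1f0, H2bc4 and H4c9 rose by 1.25 ± 0.41, 0.90 ± 0.20, 0.60 ± 0.21 and 0.43 ± 0.14. H1f2 was not called without uncoated DC day 3 M1, M4 or M5, and H2bc4 and H3c3 were lost without several single samples (adjusted p up to 0.076, 0.097 and 0.11, edgeR). The 2 days share no M number, and the B cell markers summed to 2262 ± 224 CPM at day 4 (n = 5) against 645 ± 42.5 CPM at day 3 (n = 4). Ighm alone made up 2196 and 617 CPM of these means. The part of these markers in the differences was not tested. In the list of replication-independent histone variants, which holds H1f0 and H1f10, 9 of 10 genes tested were higher, H2az2, a gene of the variant H2A.Z, by 2.74 ± 0.17 and H2ax, the gene of H2A.X, by 1.196 ± 0.10. Slbp fell by -1.20 ± 0.17 and Npat by -0.86 ± 0.25, whereas Mki67 rose by 0.61 ± 0.14. Of 44 DNA replication genes 34 were lower and none higher, with a median of -0.57. In the histone mRNA processing list 12 of 18 were lower and 2 higher (median -0.65), and among the chaperones 12 of 21 were lower and 2 higher (median -0.35). The G1/S regulators had 11 of 19 lower and 4 higher, and the mitotic genes 11 of 35 lower and 12 higher.

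At day 3 in uncoated wells, 19 of 31 members were lower in DC than in bead cultures and 2 were higher, while 24.9% of the 8907 genes tested were called, 13.8% lower and 11.1% higher. The median was -1.16 over the members. Some of them entered the test through the bead samples alone, such as H3c8, with 14.6, 17.1 and 8.18 CPM there. It had 4.28, 4.70, 3.98 and 5.12 CPM in DC samples. H2ac11 had 35.2, 30.1, 42.4 and 33.3 CPM in DC samples against 93.9, 118 and 108 CPM in bead samples, a difference of -1.60 ± 0.14 (adjusted p = 1.6e-06, edgeR), with no overlap. H3c3 differed by -1.67 ± 0.16 and H2bc11 by -1.42 ± 0.13. H1f0 and H2bc4 were higher with DCs, by 1.47 ± 0.28 and 1.33 ± 0.31. H2bc4 was not called without bead day 3 M1 (adjusted p = 0.060, edgeR). H2ac8 was lower with DCs by -1.02 ± 0.23, a call lost without bead day 3 M1 or M2 (adjusted p up to 0.074). The DNA replication list had a median of -0.05 in this comparison, with 3 of 44 genes higher and 6 lower. The mitotic list had 9 of 35 lower and none higher (median -0.17), and the G1/S regulators 4 of 18 lower and 2 higher (median -0.25). Slbp, Npat, Pcna and Mki67 were not called (adjusted p = 0.42, 0.78, 0.12 and 0.92).

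The effect of the coating was examined at 4 points. In DC cultures at day 4, 28 members were tested, of which 6 were higher in coated wells and 1 was lower, while 19.0% of the 9159 genes tested were called, 9.75% higher and 9.23% lower. The median log2 fold change was 0.35 over the members and -0.00 over all genes. H3c11, an H3 gene, had 8.7, 9.1, 7.1, 8.6 and 8.8 CPM in coated and 3.1, 3.9, 3.3, 2.3 and 4.1 CPM in uncoated wells. All coated samples lay above all uncoated samples, and the log2 fold change was 1.31 ± 0.25 (adjusted p = 0.0032, edgeR). H3c11 entered the test through the coated samples alone, so part of this direction is set by the filter. H4c2 had 19.9, 22.2, 12.9, 11.8 and 15.5 CPM in coated and 12.3, 8.5, 9.9, 3.4 and 7.0 CPM in uncoated wells. Its groups overlapped by a single sample (11.8 CPM against 12.3 CPM), with a log2 fold change of 0.98 ± 0.27 (adjusted p = 0.019, edgeR).

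H2ac11 had 50.3, 67.4, 47.2, 41.8 and 33.1 CPM in coated and 27.6, 33.7, 34.5, 31.5 and 25.6 CPM in uncoated wells, a log2 fold change of 0.65 ± 0.17 (adjusted p = 0.018, edgeR). H2bc12 was higher by 0.94 ± 0.26 (adjusted p = 0.022), H3c8 by 1.00 ± 0.33 (adjusted p = 0.045) and H3c3 by 0.67 ± 0.22 (adjusted p = 0.045). H1f0 was the member that fell: it had 28.6, 13.4, 14.2, 28.2 and 39.2 CPM in coated and 48.5, 47.3, 27.1, 45.04 and 66.3 CPM in uncoated wells, a log2 fold change of -0.97 ± 0.29 (adjusted p = 0.034). H2ac8 had a log2 fold change of 0.46 ± 0.40 (adjusted p = 0.47), with coated samples from 118 to 348 CPM and uncoated samples from 87.2 to 257 CPM.

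Of these 7 calls, H3c11 held when any sample was left out. H4c2 was lost without coated M6 or M7. H3c8 was not called without the filter on low counts or in DESeq2's Wald test. It had 5.17 to 11.4 CPM in coated and 2.25 to 5.77 CPM in uncoated wells. Like H3c11, it could enter the test through its coated samples alone. H2ac11 was not called with all 9 groups in 1 fit. The number called higher was 1 without coated M7, 2 without uncoated M6, and 3 without coated M6, uncoated M9 or uncoated M10. H1f0 was not called without coated M6, M7 or M8 or uncoated M6, M7, M9 or M10 (adjusted p up to 0.078). Without both M8 libraries 8 members were higher and 1 lower, the 7 above among them. With M number as a block, the counts were again 8 and 1, with H2ac15 and H3c6 added. In the authors' deposited table, 5 of the 7 passed an adjusted p of 0.05 in this comparison.

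**Figure D4:**
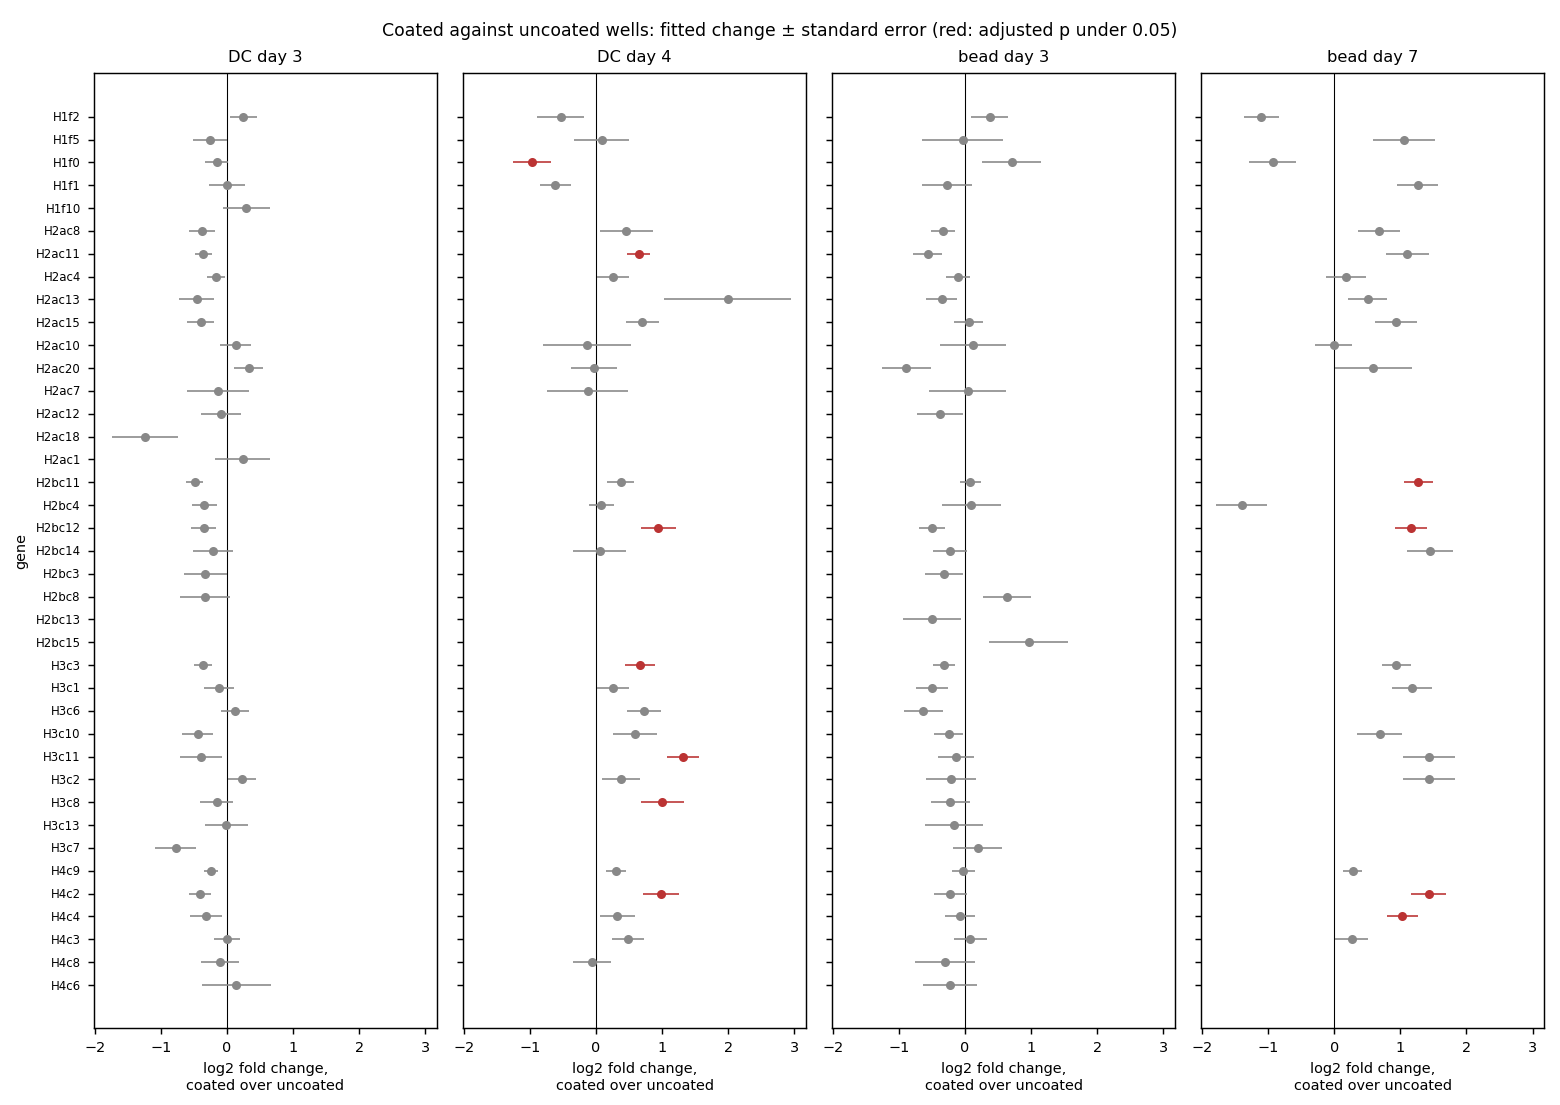
Fitted log2 fold change of coated over uncoated wells with its SE (x axis) for each histone gene tested (y axis) in the 4 coating comparisons. Red marks genes called: 6 higher and 1 lower at DC day 4, 4 higher at bead day 7. In the other panels no gene is called, and most of the points lie below 0.

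Counts of near-identical copies are given side by side for H2ac13. Coated DC day 4 samples M6 to M10 had 20.3, 23.9, 16.8, 236 and 12.2 CPM of H2ac13, so that M9 lay far above the others and above all other samples of the series. In the same samples, Hist1h2ap, a near-identical row outside the rule, had 157, 231, 106, 5.0 and 10.1 CPM, and Hist1h2ao 358, 285, 74.3, 312 and 123 CPM. The 3 rows summed to 535, 540, 197, 553 and 145 CPM, so the sum in M9 lay close to those of M6 and M7. The log2 fold change of H2ac13 was 1.99 ± 0.95 with its groups overlapping, and edgeR did not call it (adjusted p = 0.18). Without coated M9 it was 0.27 (adjusted p = 0.45). A single edgeR fit over all 9 groups called it (adjusted p = 0.0066). In the authors' deposited table it had a log2 fold change of 1.98 with an adjusted p of 0.0014.

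In bead cultures at day 7, 24 members were tested, of which 4 were higher in coated wells, while 1.84% of the 8696 genes tested were called, 0.425% higher and 1.41% lower. The median log2 fold change was 0.94 over the members and -0.01 over all genes, and 20 of the 24 were positive. H2bc11 had 55.9, 54.1, 34.3 and 50.3 CPM in coated and 30.7, 16.2, 17.5, 14.9 and 18.2 CPM in uncoated wells, with no overlap and a log2 fold change of 1.27 ± 0.22 (adjusted p = 0.017, edgeR). H4c2 had 32.5, 19.3, 14.3 and 30.6 CPM against 6.9, 9.0, 9.1, 8.9 and 9.3 CPM, a log2 fold change of 1.43 ± 0.26 (adjusted p = 0.024). H2bc12 was higher by 1.16 ± 0.24 and H4c4 by 1.03 ± 0.24, again with no overlap. H2bc12 and H4c2 were thus called at both DC day 4 and bead day 7.

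Linker histone H1f2 and the H2B gene H2bc4 went the other way at bead day 7, without being called. H1f2 had 22.6, 29.2, 21.1 and 20.4 CPM in coated and 29.6, 49.7, 47.1, 76.5 and 41.5 CPM in uncoated wells, a log2 fold change of -1.10 ± 0.26 (adjusted p = 0.053, edgeR). H2bc4 had -1.40 ± 0.39 (adjusted p = 0.076) and H1f0 had -0.93 ± 0.35 (adjusted p = 0.15). Summed myeloid markers were also lower in coated wells of this comparison, at 4.18 ± 1.42 CPM (n = 4, 3.19 to 6.28) against 20.1 ± 5.86 CPM (n = 5, 14.96 to 29.7), with no overlap. A single marker, Fcer1g, held 2.47 and 15.1 CPM of these means, and each of the others averaged at most 2.02 CPM. Erythroid markers summed to 9.96 to 15.6 CPM against 11.1 to 826 CPM, and B cell markers to 482 to 562 CPM against 269.8 to 1307 CPM. Most of the B cell sums was Ighm, with means of 509 and 805 CPM. The part of these markers in the histone differences was not tested. None of the 4 higher calls held without coated M1, coated M2, coated M5, uncoated M3 or uncoated M5, or without both uncoated M3 and M4. Without uncoated M1 or M2, 9 members were higher and 2 lower. DESeq2's Wald test called 10 higher and 2 lower, and 1 fit over all 9 groups 13 higher and 2 lower. In the authors' deposited table, 11 members were higher and 2 lower (H1f2 and H2bc4) at an adjusted p under 0.05.

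At day 3 no member was called for the coating, in either culture. Of 37 members tested in DC cultures, 27 had a negative log2 fold change, with a median of -0.21; edgeR and DESeq2's Wald test both called 0, and 7 had an unadjusted p under 0.05 in edgeR. Of all 10245 genes tested there, 0.41% were called, 0.176% higher and 0.234% lower. H2bc11 had 29.5, 28.3, 25.3, 20.9 and 22.7 CPM in coated and 38.5, 32.9, 35.4 and 34.1 CPM in uncoated wells, a log2 fold change of -0.49 ± 0.13 (adjusted p = 0.12, edgeR), with no overlap. In coated wells the summed level differed by the number in the title: DC day 3 libraries with 30 had 457 to 508 CPM and those with 120 had 635 to 732 CPM. Uncoated libraries overlapped, with 604 to 685 and 599 to 794 CPM. The coated samples hold 5 libraries with 30 and 4 with 120, and the uncoated samples 3 and 4. Coated M3 has only a library with 30 and uncoated M3 only one with 120. Fits of libraries with 30 alone or 120 alone also called 0 members. The labels do not explain the numbers in the titles.

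In bead cultures at day 3, 25 of 36 members had a negative log2 fold change, with a median of -0.22. Both tests called 0, and 4 had an unadjusted p under 0.05 in edgeR, while 0.1% of the 8985 genes tested were called, 0.0445% higher and 0.0556% lower. H2ac11 had a log2 fold change of -0.57 ± 0.22 (adjusted p = 0.38, edgeR) and H2bc12 one of -0.51 ± 0.20 (adjusted p = 0.38).

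The difference between the coating effects at DC day 4 and DC day 3, from libraries with 120 in the title, was called for 1 of 34 members, while 3.68% of the 9794 genes tested were called, 2.3% higher and 1.38% lower. This was H4c2, whose log2 fold change was higher at day 4 by 1.54 ± 0.39 (adjusted p = 0.032, edgeR). The call was lost without coated DC day 3 M2, uncoated DC day 3 M4 or M5, coated DC day 4 M6 or M7, or uncoated DC day 4 M10, and with all 9 groups in 1 fit (adjusted p up to 0.11). H1f0 differed by -1.0 ± 0.38 (adjusted p = 0.15) and H2bc12 by 1.14 ± 0.36 (adjusted p = 0.075).

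Genes that work with the histones were examined in the same fits, from 6 lists that were chosen with results of these data known. At DC day 4, coated wells had 40 of 44 DNA replication genes higher and none lower, with a median of 0.60, led by the helicase subunit Mcm4 (0.87 ± 0.12), the licensing factor Cdc6 (0.96 ± 0.14) and the dUTPase Dut (0.90 ± 0.13). Of 19 G1/S regulators 12 were higher and 1 lower, with a median of 0.54, among them cyclin E1 (Ccne1, 0.90 ± 0.14), Cdk6 (1.16 ± 0.19) and the phosphatase Cdc25a (1.15 ± 0.21). Of 35 genes of G2 and mitosis 8 were higher and 1 lower, with a median of 0.22, among them Hmgb2 (0.82 ± 0.13), Plk1 (0.54 ± 0.12) and Bub1 (0.82 ± 0.18). Mki67 was not called (0.30 ± 0.19, adjusted p = 0.28, edgeR), whereas Pcna was higher by 0.42 ± 0.12.

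Of 17 genes of histone mRNA processing and transcription 5 were higher in coated DC cultures at day 4 and none lower, with a median of 0.24. Casp8ap2, whose product FLASH acts in histone pre-mRNA cleavage, was higher by 0.81 ± 0.18, the Sm protein gene Snrpd3 by 0.68 ± 0.15 and Slbp by 0.59 ± 0.17, from 18.2 to 27.8 CPM on average. Npat did not differ detectably (0.09 ± 0.26, adjusted p = 0.83, edgeR). Of 21 chaperones and assembly factors 7 were higher and 1 lower, with a median of 0.28, among them Nasp (0.83 ± 0.13), a chaperone of H3 and H4, Mcm2 (0.80 ± 0.12) and the FACT subunit Ssrp1 (0.49 ± 0.09). Of 10 replication-independent variants none was higher and 2 were lower, H1f0 and H2bu2, an H2B gene (-0.87 ± 0.28), with a median of -0.20. At bead day 7 edgeR called 0 of the 44 replication genes, 31 had an unadjusted p under 0.05, and DESeq2's Wald test called 11 higher. Their values were positive in 43 of 44, with a median of 0.50, and Pcna and Slbp had 0.55 ± 0.16 (adjusted p = 0.081) and 0.58 ± 0.22 (adjusted p = 0.15). At day 3 neither test called any of the 44 genes. With DCs 5 had an unadjusted p under 0.05 in edgeR and 10 were positive, with a median of -0.11, and with beads the numbers were 4 and 22, with a median of 0.01.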

How the data were processed

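The deposited table holds whole-number counts per gene, which the authors made with STAR 2.4.2a and HTSeq on mm10, per the submitters' processing notes; whether molecules were collapsed, and how reads that fit several copies were counted, is not given in the sources used here. It also holds the authors' log2 fold changes and their adjusted p-values, printed only where named. Samples were grouped by the labels, and DC day 3 libraries were summed per M number and coating. Low genes were dropped by filterByExpr (at least 10 counts, total at least 15). After TMM scaling, edgeR 4.0.16 in R 4.3.3 fitted only the groups compared, and its quasi-likelihood test was two-sided and robust. P-values were adjusted over all genes tested by Benjamini-Hochberg. CPM use TMM factors over all 45 samples, so a ratio of CPM can differ slightly from a fitted fold change. The test was tested on simulated data.

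The members, lists and tests were chosen with earlier results of these data known. Members with a mean of at least 10 CPM over the groups, up to 4 called members per coating comparison and up to 3 called genes per list at DC day 4 are named, and H3c8, H3c13, H2bc8, H2ac18, H2az2, H2ax, calls gained or lost and the older symbols were added after their values were seen. Alternatives were DESeq2 size factors, no filter, DESeq2 1.42.0 (Wald), blocking on the M number, fitting all groups at once and leaving out each sample; leaving out DC day 4 M8 and uncoated bead day 7 M3 and M4 was added after seeing the data. Deviations of samples with the same M number correlated above 0.1 in every pair at DC day 4 (5 pairs, 0.13 to 0.34) and for bead day 7 against day 3 (3 pairs, 0.14 to 0.27), so the block applies to these comparisons. Positions and models are those of GENCODE vM21, and promoters those of RefSeq.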

Additional observations from a re-analysis of the deposited data

Results flagged for a closer look

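Of 152 sets of 4 to 9 values examined (13 members and 6 sums in each group of at least 4 samples), 15 held a sample far from the others; chance alone marks about 1 in 20 sets. At day 0, M2 was high for H4c2 (35.8 CPM) and H2ac13 (23.9 CPM). At bead day 7, uncoated M3 was high for H1f0 (21.1 CPM), and uncoated M1 was high for H2bc11 (30.7 CPM) and low for H4c2 (6.88 CPM). At DC day 3, uncoated M3 was low for H1f0 (16.9 CPM), uncoated M1 low for the H4 sum (101 CPM) and coated M2 high for it (111 CPM). Uncoated DC day 4 M8, which carries the most erythroid, MHC class II and myeloid markers among activated samples, was high for H1f2 (109 CPM), H2bc11 (28.8 CPM) and the H2A sum (522 CPM). In coated DC day 4 samples, M10 was high for H2ac8 (348 CPM), M8 low for H3c11 (7.11 CPM), M9 high for H2ac13 (236 CPM) and M7 high for the H3 sum (127 CPM). The coating effect on H4c2 differed between DC day 4 and day 3 by 1.54 on the log2 scale, tested as a contrast in edgeR.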

How the results depend on the processing

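Of 103 called results of named members, none changed direction under any alternative run, and 70 were called under all of them; 126 of 1645 alternative values were no longer called. Counts of members that moved by over 1.5 times follow, as higher or lower. No filter: bead day 7 coating 1 lower, bead day 7 against day 0 12 higher and 16 lower, DC day 3 against day 0 19 and 12, DC day 4 against day 0 16 and 11, DC against bead 4 higher. Wald test: bead day 7 coating 10 and 2, bead day 3 against day 0 5 lower, bead day 7 against day 0 10 and 14, DC day 3 against day 0 17 and 11, DC day 4 against day 0 16 and 11, difference of coating effects 1 lower (H1f2). All groups in 1 fit: bead day 7 coating 13 and 2, and 12, 17 and 16 higher for bead day 7, DC day 3 and DC day 4 against day 0, DC day 4 against day 3 2 higher, difference of coating effects 0. With the M number as a replicate block, 1 member was lower at DC day 3 coating (H2ac18), 1 at bead day 7 coating, 5 at bead day 3 and 4 at DC day 4 against day 0, where H2ac20, H4c3 and H4c8 were not called (DC day 4 against day 0: H4c3 -0.56, adjusted p = 0.11). The M numbers were taken to pair samples where at least 3 pairs all correlated above 0.1, which held for DC day 4 coating and bead day 7 against day 3. DC against bead at day 3 had only 2 pairs, with correlations of 0.15 and 0.16. With the block, H2ac15 and H4c4 were not called there. Without uncoated bead day 7 M3 and M4, 0 members were higher for the coating and 1 for day 7 against day 3. The cause of these moves was not tested, apart from the number of genes entering without a filter. Leaving out 1 sample gave 1 to 8 higher and 0 to 2 lower at DC day 4 coating, 0 to 9 and 0 to 2 at bead day 7 coating, 8 to 13 higher for DC day 3 against day 0 (13 without day 0 M2), 1 to 2 for bead day 7 against day 3, 2 to 4 for DC day 4 against day 3, 1 to 3 for DC against bead and 0 to 3 for the difference of effects. From 120 libraries alone the coated DC day 3 sum was 688 CPM. Without TMM factors each group's sum moved by less than its SD. The size factors of DESeq2 moved the median of all genes by less than 0.1, and members under 10 CPM rest on few counts.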

Other observations

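Of 9 members on chromosome 3, 7 had their highest group mean at day 0, against 6 of the 41 on chromosome 13. These 7 averaged 0.347 to 8.80 CPM over the groups. The sum of the 9 was 50.1 ± 20.3 CPM at day 0 (n = 9) and 11.2 ± 6.86 CPM in uncoated bead cultures at day 7 (n = 5), the lowest group. Day 0 samples M1 to M5 had 50.5 to 78.4 CPM, whereas M6, M7, M8 and M10 had 27.8 to 32.7 CPM. Uncoated bead day 3 samples had 21.3 to 29.8 CPM. Bead and DC day 3 cultures carry M1 to M5, and DC day 4 cultures M6 to M10. In uncoated DC day 4 the sum was 71.6 CPM in M8 and 12.9 to 22.4 CPM in the others. H2ac18, an H2A gene of this cluster, had 42.0 CPM in M8 against a group median of 0.231 CPM. The markers of other spleen cells are high at day 0 and in M8 too, and their part was not tested.

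Models with a stem-loop and at most 300 bases after it (19 members) had their highest group mean at bead day 3 for 15 members and at day 0 for 3. Models with more than 300 bases after it (12 members) had it at bead day 3 for 4 and at day 0 for 5. The 7 rows under older symbols summed to 37.2 ± 9.10 CPM at day 0 (n = 9) and 373 ± 150 CPM in uncoated DC day 4 samples (n = 5), mostly from Hist1h2ao and Hist1h2ap. Hist1h2ap ran from 24.7 to 430 CPM among uncoated DC day 4 samples and from 5.0 to 231 CPM among coated ones.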
